A study of Bactrocera oleae with 8 samples.

Results

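This report describes 283 of the 20516 contig names measured in larvae of the olive fruit fly, *Bactrocera oleae*: those whose signal was high in larvae fed on black olives and lower both in larvae fed on green olives and in larvae reared on artificial diet. A contig is an assembled transcript sequence, and most contigs here carried 3 or 4 array probes. For each contig name, the log ratios given by the scanner software were averaged over spots and over the 4 arrays of a set and put on the log2 scale. A contig was kept when black olives lay at least 0.8 above green olives and at least 0.8 above artificial diet, when green olives lay less than 0.8 above artificial diet, and when the black olive signal was well above background in at least 50% of its spots. These limits were met by 287 contigs, and 4 of them were left out by a fixed list of names. No contig described as viral met the limits. The members make up 1.38% of all names.

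The larva of the olive fly feeds inside the flesh of the olive. Unripe green olives are rich in phenolic compounds such as oleuropein, which binds protein, and these compounds decline as the fruit ripens and turns black. A feeding larva digests the flesh, copes with its phenolic compounds and lays down new tissue and cuticle. Enzymes of metabolism, the secretory pathway and cuticle proteins serve these tasks.

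Larvae in black olives were collected in January and larvae in green olives in September, in the same orchard on Crete. Larvae on artificial diet, a medium with olive oil, hatched in the laboratory from eggs of females that came out of infested olives of that orchard. All were larvae of instar 2, and each RNA sample was a pool of 20 whole larvae, so fewer cells of a type and less RNA per cell cannot be told apart. Fruit stage, season and, for the diet, laboratory rearing changed together and cannot be told apart either. The Cy5 channel held green olive larvae on all 8 arrays of a single slide, and the Cy3 channel held black olive larvae on 4 arrays and artificial diet larvae on the other 4. No array had the dyes swapped, so a dye effect cannot be told apart from the olive stage where black was set against green. Black olives and artificial diet were both labelled with Cy3 and were compared through the green olive channel.

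Between 56.9% and 67.2% of the spots of a channel were well above background. Black olive array 2 stood apart from the other 3 black olive arrays for many contigs of this set. Its effect on the calls is given with some results in place, and for the members with a named protein after all of them. Among all 20512 contigs measured on every array, 31.3% had their highest black over green ratio on that array. Whole larvae hold many tissues, and marker contigs of muscle, midgut and cuticle were present in every regime. For 5 muscle contigs, the summed log2 level was 55.2 to 56.4 in black olives, 56.0 to 58.1 in artificial diet and 54.8 to 57.2 in green olives. These contigs did not move together: 2 were called higher in black than in green olives, myosin heavy chain (contig04073) by 1.07 and the troponin T contig10092 by 1.04, and arginine kinase (contig01097) was called lower by -1.82. Myosin heavy chain was at 0.91 and troponin T at 0.85 without black olive array 2, and neither was then called. For 5 midgut protease contigs it was 63.9 to 65.7 in black olives, 61.5 to 62.8 in artificial diet and 67.7 to 69.5 in green olives, with none called higher and 1 lower in black than in green olives, and 2 higher and 1 lower in black olives than in artificial diet. For 4 cuticle contigs it was 44.1 to 51.0 in black olives, 51.5 to 53.4 in artificial diet and 51.6 to 53.5 in green olives, with 3 called lower in black than in green olives and 1 higher in black olives than in artificial diet. None of these 14 marker contigs was below background in all channels, and their part in the results was not tested.

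The values that chose the members came from all 3 comparisons between regimes, so the differences below describe the set and are not tests of it. On the normalized log2 scale, the members had a median black minus green difference of 0.79, with a range of 0.16 to 2.19. The median over all contigs was 0.00. The median black minus artificial difference was 0.78, with a range of 0.14 to 2.35, beside 0.01 over all contigs. The green minus artificial difference had a median of -0.01 and lay between -0.13 and 0.09 for the middle 50% of the members. The scanner ratios that entered the rule were larger than the normalized ones, with medians of 1.19 for black over green olives and 1.11 for black olives over artificial diet.

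**Figure D1:**
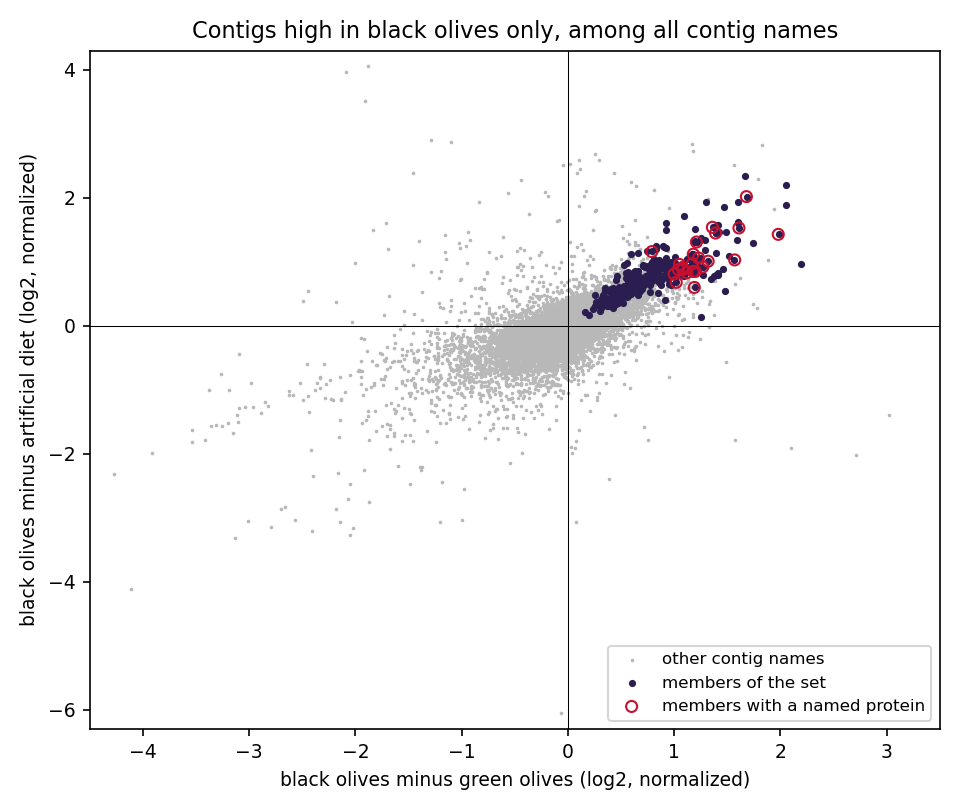
Each point is a contig name, with the normalized log2 difference of black minus green olives on the x axis and of black olives minus artificial diet on the y axis. The 283 members (dark) lie to the upper right of the other contigs (grey) because the rule placed them there; red circles mark the 23 members with a named protein, from 0.79 to 1.98 on the x axis.

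The difference lay in the Cy3 channel. The mean Cy3 level of the members was higher in black olives than in artificial diet by a median of 0.80, whereas the green olive level on the black olive arrays exceeded that on the artificial diet arrays by a median of 0.02. A channel was counted as above background if any spot of the contig was well above it there. By this measure 250 members were above background in all 4 black olive channels, 231 in all 4 artificial diet channels and 209 in all 8 green olive channels. All 16 channels were above background for 203 members. The rule itself required black olive signal, and no share over all contigs stands beside these counts, so nothing is read from them. For 7 members no artificial diet channel was well above background, and for 12 no green olive channel of the black olive arrays was. For these contigs only a bound could be given, the mean level in black olives over the lowest level that counted as well above background. The bound was at least 1.06-fold to at least 1.64-fold over artificial diet and at least 1.12-fold to at least 1.71-fold over green olives.

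The members differed widely in how steady they were across the 4 black olive arrays. Their median log2 ratio of black over green was 0.62, 1.09, 0.75 and 0.53 on arrays 1 to 4, and their median ratio of artificial diet over green was 0.11, -0.11, -0.01 and 0.10. Black exceeded green on all 4 arrays for 229 members, or 80.9%, against 19.3% of all contigs. For 144 members, or 50.9%, the 4 black over green ratios all lay above the 4 artificial over green ratios, against 8.03% of all contigs. The rule used these same arrays, so nothing is read from these shares. The SD over the 4 black olive arrays had a median of 0.42 among the members and of 0.21 among the contigs that met the background limit of the rule. The highest ratio fell on black olive array 2 for 173 members, or 61.1%, on array 3 for 55, on array 1 for 31 and on array 4 for 24. Among the contigs that met the background limit, it fell on array 2 for 4492, array 3 for 2970, array 1 for 2902 and array 4 for 1972. On the artificial diet side, the ratio over green was highest on array 1 for 111 members and lowest on array 2 for 115.

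**Figure D2:**
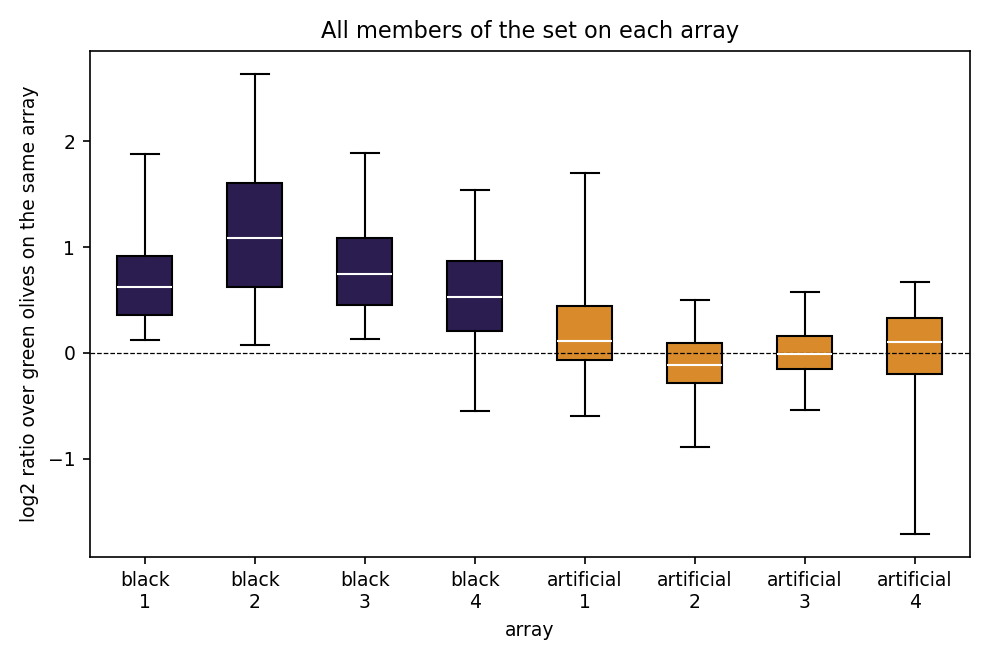
Log2 ratio over the green olive channel of the same array for the 283 members, with black olive arrays (dark) left of artificial diet arrays (orange). White lines are medians, boxes the middle 50% and whiskers the 5th to 95th percentiles; the median is 1.09 on black olive array 2 and 0.53 to 0.75 on the other black olive arrays.

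A contig was called, after the study's methods, if its adjusted p-value was under 0.05 and its log2 difference over 1 in size. By this standard 53 members were called higher in black than in green olives, where 0.512% of all contigs were called. In black olives against artificial diet, 19 members were called, where 0.327% of all contigs were. Both calls were made for 13 members and neither for 224. No member was called in limma's fit for green olives against artificial diet, where 1.05% of all contigs were called in either direction. In that fit 22 members had an unadjusted p-value below 0.05. No share over all contigs stands beside that count, so nothing is read from it. By the adjusted p-value alone, 200 members were higher in black than in green olives, where 10.8% of all contigs passed, and 64 were higher in black olives than in artificial diet, where 1.85% passed. For green olives against artificial diet, 1 member was higher in green, where 5.66% of all contigs passed, and 3 were lower in green, where 5.39% passed. Since the rule used these contrasts, the counts only describe how far the members reached. Without black olive array 2, 33 members were called for black against green olives, where 0.385% of all contigs were, and 14 for black olives against artificial diet, where 0.278% were. The count over artificial diet was less stable than that over green olives: it was 10, 8 and 9 without artificial diet array 1, 2 and 3, 10 with the row of the slide in the model and 2 with the replicate number as a block. The labels do not say that a replicate number pairs arrays, and arrays of the same number mostly did not deviate most alike. No share over all contigs stands beside these alternative counts.

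The rule was applied again with 1 array left out, and the normalized ratios of the chosen contigs were read on that array. Without black olive array 1, 394 contigs were chosen and their median black over green ratio on array 1 was 0.48. Without array 2 there were 239 contigs, with a median of 0.47 on array 2. Without array 3 there were 294 contigs, with a median of 0.61 on array 3. Without array 4 there were 400 contigs, with a median of 0.34 on array 4. The ratio on the array left out was above 0 for 95.9%, 70.3%, 94.9% and 78.2% of the chosen contigs on arrays 1 to 4. Among all contigs, which include those under the background limit of the rule, 47.8% to 50.8% were above 0 on these arrays. Contigs chosen on 3 black olive arrays were therefore mostly higher in black than in green olives on the array left out too. The medians of 0.34 to 0.61 are normalized ratios, whereas the limit of 0.8 was set on the larger scanner ratios, so the 2 are not compared. On the normalized scale the members had a median of 0.79 with all arrays used. Black olives were labelled with Cy3 on all black olive arrays, so a dye effect would recur on the array left out.

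The artificial diet arrays gave the converse reading. Contigs chosen without artificial diet array 1, 2, 3 or 4 had median artificial over green ratios of 0.15, -0.02, 0.02 and 0.18 on the array left out. On arrays 1 and 4 the ratio was above 0 for 74.4% and 73.1% of the chosen contigs, so artificial diet mostly lay above green olives there, and on arrays 2 and 3 it was above 0 for 46.6% and 52.7%. Between 47.9% and 48.8% of all contigs were above 0 on these arrays. Across all contigs, the green olive channel of each black olive array deviated from its set mean like that of 1 artificial diet array (r = 0.62 to 0.87). The study's methods name 4 biological replicates per regime and do not state outright that both sets of arrays drew on the same green olive pools. The model and the reading on arrays left out took the arrays as independent. The standard errors and calls of black olives minus artificial diet therefore take no account of shared pools. Whether arrays of the 2 sets shared a green olive pool was not tested.

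The make-up of the set rested unequally on the arrays. Without black olive array 2, 154 of the 283 members were kept, the fewest of any array, while the other arrays kept 218 to 263 members when left out. In all, 91 members were kept whichever array was left out. By comparison, a mirrored rule for contigs low in black olives only found 409 contigs, and 78.2% of them were kept without black olive array 2, against 54.4% of the members. What set array 2 apart was not tested.

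**Figure D3:**
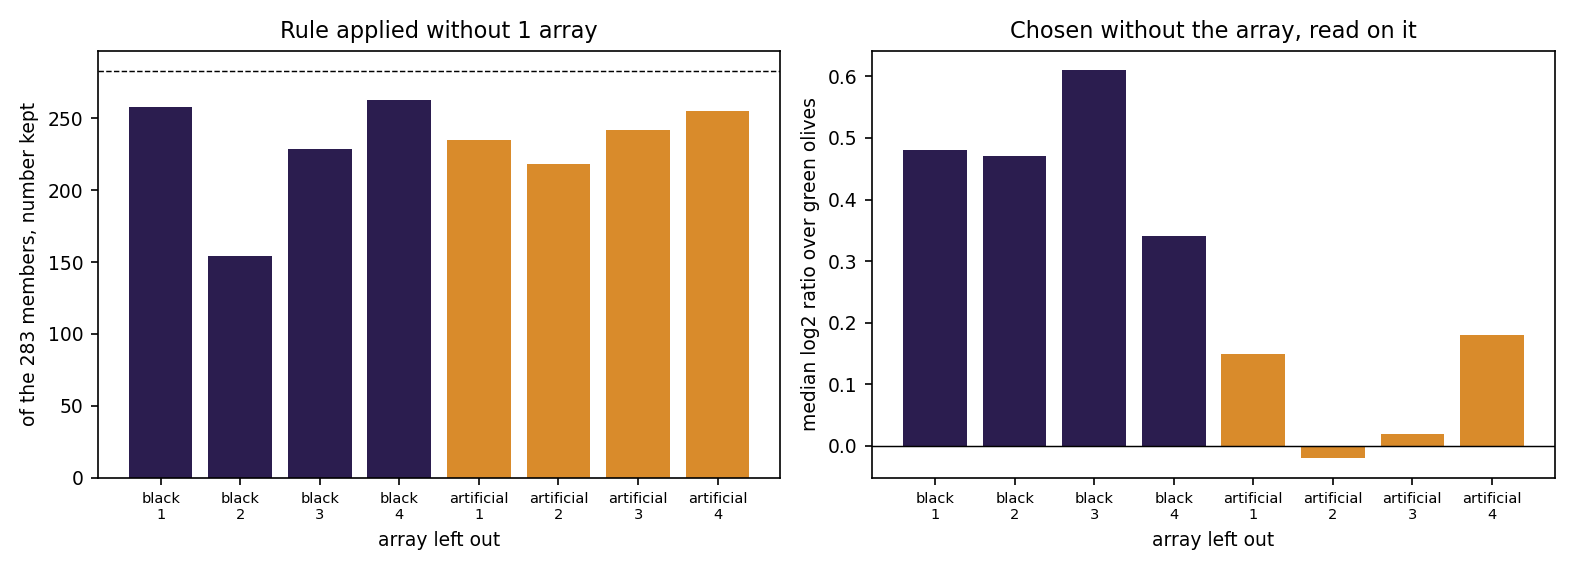
Left, how many of the 283 members (dashed line) the rule still found when the array on the x axis was left out, from 154 without black olive array 2 to 263 without black olive array 4. Right, the median normalized log2 ratio over green olives, on the array left out, of the contigs chosen without it, 0.34 to 0.61 on black olive arrays (dark) and -0.02 to 0.18 on artificial diet arrays (orange).

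Protein names were at hand for few members. The study's lists of changed contigs hold 56 members, of which 32 have a description and 23 a named protein; the other 227 members are not described here. Because those lists hold contigs the study had called, the 23 named members are not a sample of the set, and 22 of them were called higher in black than in green olives. Over artificial diet 7 of the 23 were called, among them no secretory member and none that handles RNA or protein, and with the replicate number as a block 0 were. Another 9 described members carry only a gene-model code, an isoform letter or the name of an uncharacterized product.

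**Figure D4:**
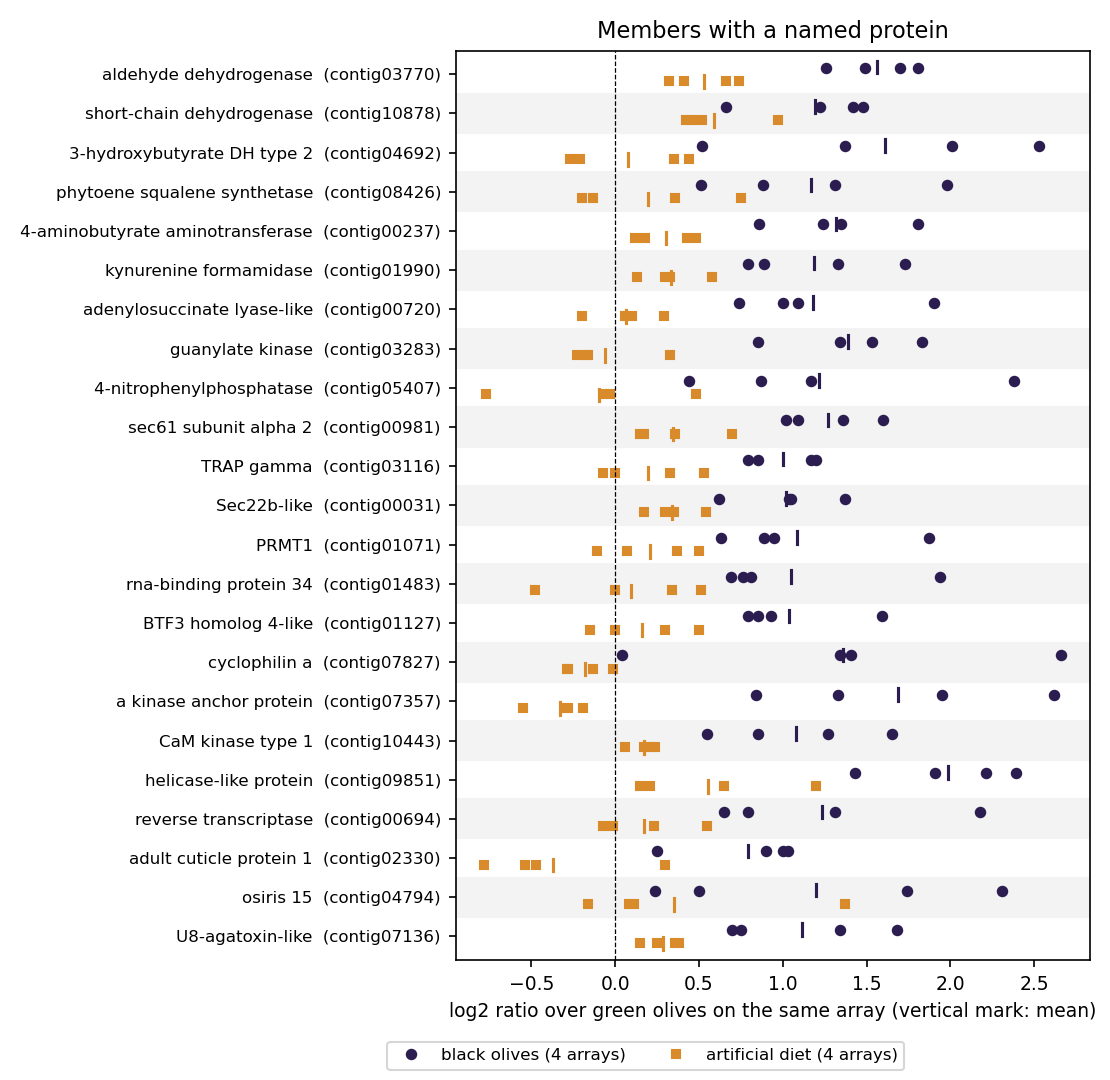
Log2 ratio over green olives on the same array for the 23 members with a named protein, with the 4 black olive arrays (dark circles) above the 4 artificial diet arrays (orange squares) of each contig and vertical marks at the means. The groups overlap for contig10878, contig08426, contig05407, contig02330 and contig04794, and are separate for the other 18.

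The largest named group was made up of 9 metabolic enzymes. Their black minus green difference ranged from 1.17 to 1.61 with a median of 1.21, and their black minus artificial difference ranged from 0.60 to 1.53 with a median of 1.03. Contig03770 encodes an aldehyde dehydrogenase, an enzyme that oxidizes aldehydes to acids. Its ratio over green olives was 1.26, 1.81, 1.49 and 1.70 on the black olive arrays and 0.41, 0.32, 0.74 and 0.66 on the artificial diet arrays. All 8 ratios were above 0 and the groups did not overlap, so artificial diet lay between black and green olives. The means gave 2.96-fold over green olives (log2 1.57 ± 0.24, SD, n = 4) and 2.05-fold over artificial diet (log2 1.03 ± 0.14, SE). Its 4 probes disagreed in size, from 0.85 to 3.33 over green olives and from 0.35 to 2.01 over artificial diet. Contig10878, a short-chain dehydrogenase from a large family of oxidoreductases, had ratios of 0.66, 1.22, 1.48 and 1.42 on the black olive arrays and 0.42, 0.46, 0.52 and 0.97 on the artificial diet arrays. The lowest black olive array fell among the artificial diet arrays, and the difference from artificial diet was 0.60 ± 0.20 (SE).

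Contig04692 encodes 3-hydroxybutyrate dehydrogenase type 2, which in mammals acts on a ketone body. Its ratios were 0.52, 2.01, 2.53 and 1.37 in black olives and 0.35, -0.27, -0.21 and 0.44 in artificial diet. Black olive array 1 lay only slightly above the highest artificial diet array, and the other 3 black olive arrays lay far above it. The differences were 1.61 ± 0.87 over green olives (SD, n = 4) and 1.53 ± 0.41 over artificial diet (SE). Contig08426, a phytoene and squalene synthetase, belongs to the enzymes that join isoprenoid units. Its ratios were 0.51, 1.98, 1.31 and 0.88 in black olives and 0.75, -0.13, -0.20 and 0.36 in artificial diet, and black olive array 1 was lower than artificial diet array 1.

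Among the named enzymes, 4 act on amino acids or nucleotides, with SDs of 0.39 to 0.50 over the black olive arrays, close to the median of the members. Contig03283 encodes guanylate kinase, which phosphorylates GMP. Its ratio was 0.85, 1.83, 1.34 and 1.53 in black olives and -0.23, -0.18, -0.16 and 0.33 in artificial diet. Artificial diet lay close to green olives, and all black olive arrays were higher. The folds were 2.62 over green olives (log2 1.39 ± 0.41, SD, n = 4) and 2.73 over artificial diet (log2 1.45 ± 0.21, SE). Contig00720, an adenylosuccinate lyase-like enzyme of purine synthesis, had ratios of 0.74, 1.90, 1.09 and 1.0 in black olives and 0.06, -0.20, 0.10 and 0.29 in artificial diet. Its difference over green olives was 0.94 without black olive array 2 and was then not called. Contig00237, 4-aminobutyrate aminotransferase, degrades the transmitter GABA. Its ratios were 1.35, 1.24, 1.81 and 0.86 in black olives and 0.48, 0.18, 0.12 and 0.43 in artificial diet, and black olive array 2 was only the third highest here. Contig01990, kynurenine formamidase of the tryptophan breakdown pathway, had ratios of 0.79, 1.73, 1.33 and 0.89 in black olives and 0.58, 0.33, 0.13 and 0.30 in artificial diet. For these 4 enzymes the groups did not overlap.

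Contig05407, a 4-nitrophenylphosphatase that splits phosphate esters, was a dim contig. It was above background in 3 of the 4 black olive channels, 1 of the 4 artificial diet channels and 3 of the 8 green olive channels. Its ratios were 0.87, 1.17, 2.38 and 0.44 in black olives and -0.77, -0.03, -0.07 and 0.48 in artificial diet, so that the groups overlapped.

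A list of 10 contigs of amino acid and nucleotide metabolism held 4 members, the enzymes just named. Of the 10 contigs, 4 were called higher and 2 lower in black than in green olives, and 5 were called higher and none lower in black olives than in artificial diet. Without black olive array 2, contig03283 (1.30) and contig01395 (1.27) were still called over artificial diet. Contig00720 (0.88), contig00237 (1.04) and glutamine synthetase 2 (contig02665, 0.94) were then not. The list was drawn from contigs the study had called on these arrays, so it is not independent evidence of a direction. Phosphoserine aminotransferase (contig01395), of serine synthesis, was no member: black olives exceeded artificial diet by 1.18 and green olives by only 0.14. S-adenosylmethionine synthetase (contig00095) and D-amino acid oxidase (contig02008) were lower in black than in green olives by log2 differences of -1.02 and -1.32.

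Of 9 listed contigs of lipid and acetyl-CoA metabolism, 2 were members (contig08426 and contig04692). Acetyl-CoA carboxylase (contig01325), ATP citrate lyase (contig01047) and the tricarboxylate transport protein (contig02942), which together make cytosolic acetyl-CoA and malonyl-CoA for fatty acid synthesis, were higher in black than in green olives by 1.26, 1.57 and 1.03. Over artificial diet the differences were 0.54, 0.66 and 0.42, and none of the 3 met the rule. Leaving out black olive array 2 put contig02942 at 0.87 over green olives, where it was not called. On these 3 contigs artificial diet lay between black and green olives. In the list as a whole, 6 contigs were called higher and 2 lower in black than in green olives, and none higher and 1 lower in black olives than in artificial diet. Contig08426 (0.90) and phospholipase A1 (contig04753, -0.81) were also not called over green olives without black olive array 2. This list too came from contigs the study had called. Among 8 listed dehydrogenases, 2 were members. There, 5 were called higher and 1 lower in black than in green olives, against 1 higher and 1 lower in black olives than in artificial diet. The 1 called higher over artificial diet, contig03770, was at 0.95 without black olive array 2 and was then not called.

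The 3 secretory members act on proteins that enter or leave the endoplasmic reticulum. Contig00981 is the alpha subunit of Sec61, the channel through which new proteins cross the membrane. Its ratio was 1.02, 1.36, 1.60 and 1.09 in black olives and 0.15, 0.17, 0.36 and 0.70 in artificial diet. It was abundant, with log2 levels of 14.52 to 14.98 in black olives, 13.56 to 14.35 in artificial diet and 13.39 to 13.69 in green olives. The difference was 1.27 ± 0.26 over green olives (SD, n = 4), 2.41-fold, and 0.92 ± 0.17 over artificial diet (SE). Contig03116, the gamma subunit of the translocon-associated complex that sits beside this channel, had ratios of 0.79, 1.17, 1.20 and 0.85 in black olives and 0.33, -0.07, 0.00 and 0.53 in artificial diet. It was among the least variable named members, with an SD of 0.21 over the black olive arrays. Contig00031, the SNARE protein Sec22b of traffic between endoplasmic reticulum and Golgi, had ratios of 0.62, 1.37, 1.05 and 1.04 in black olives and 0.17, 0.30, 0.35 and 0.54 in artificial diet. The groups did not overlap for any of the 3.

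In the list of 5 contigs of the secretory pathway, members included, 3 were called higher and 1 lower in black than in green olives, and none was called in either direction between black olives and artificial diet. Without black olive array 2, contig00981 was still called over green olives (1.24), and contig03116 (0.95) and contig00031 (0.90) were not. Protein disulfide-isomerase A6 (contig00597), which folds secreted proteins, differed by -0.77 between black and green olives and by 0.35 between black olives and artificial diet. Sorting nexin-9 (contig04278) of endocytosis was lower in black than in green olives, by -1.12. The list was drawn from contigs the study had called.

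Of the 4 members that handle RNA or protein, 3 had nearly the same profile. Contig01071, the arginine methyltransferase PRMT1, had ratios of 0.63, 1.87, 0.89 and 0.95 in black olives and 0.37, -0.11, 0.07 and 0.50 in artificial diet. Contig01483, RNA-binding protein 34, had 0.76, 1.94, 0.69 and 0.81 in black olives and 0.51, -0.48, 0.00 and 0.34 in artificial diet. Contig01127, related to BTF3, a partner of newly made polypeptides at the ribosome, had 0.79, 1.59, 0.85 and 0.93 in black olives and 0.50, -0.15, 0.00 and 0.30 in artificial diet. In each, black olive array 2 was far above the other 3, artificial diet array 1 was the highest or second highest of its set, and array 2 the lowest. All 3 were called higher in black than in green olives, and without black olive array 2 none was, with differences of 0.82, 0.75 and 0.86. Contig07827, the prolyl isomerase cyclophilin A, was more uneven: its ratios were 1.34, 2.66, 0.04 and 1.41 in black olives and -0.13, -0.28, -0.01 and -0.29 in artificial diet. Black olive array 3 was barely above green olives there, and the difference over green was 1.36 ± 1.07 (SD, n = 4).

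The 2 signalling members act in second messenger pathways. Contig07357 encodes an A kinase anchor protein, which tethers the cyclic AMP-dependent kinase. Its ratio was 1.33, 2.62, 0.84 and 1.95 in black olives and -0.30, -0.55, -0.28 and -0.19 in artificial diet. All artificial diet arrays were below green olives and all black olive arrays above, with no overlap. The difference was 1.68 ± 0.77 over green olives (SD, n = 4) and 2.02 ± 0.34 over artificial diet (SE), 4.05-fold, the largest over artificial diet among the named proteins. Contig10443, a calcium and calmodulin-dependent protein kinase, had ratios of 0.55, 1.65, 1.27 and 0.85 in black olives and 0.24, 0.06, 0.17 and 0.21 in artificial diet.

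Contig09851, a helicase-like protein, had the largest difference over green olives among the named proteins. Its ratio was 1.43, 2.39, 1.91 and 2.21 in black olives and 0.15, 0.65, 0.21 and 1.20 in artificial diet. Every black olive array exceeded every artificial diet array, and artificial diet array 4 came closest. The difference was 1.98 ± 0.42 over green olives (SD, n = 4), 3.96-fold, and 1.43 ± 0.28 over artificial diet (SE), 2.70-fold. Contig00694, a reverse transcriptase of the kind that mobile elements encode, had ratios of 0.65, 2.18, 0.79 and 1.31 in black olives and -0.07, -0.01, 0.55 and 0.23 in artificial diet. Without black olive array 2, its difference over green olives was 0.91 and was not called.

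The last 3 named members are secreted or cuticle proteins. Contig02330, adult cuticle protein 1, had ratios of 0.90, 1.03, 1.0 and 0.25 in black olives and 0.30, -0.78, -0.54 and -0.47 in artificial diet. It was the one named member not called over green olives (0.79 ± 0.37, SD, n = 4) and was called over artificial diet (1.16 ± 0.26, SE), though no longer without black olive array 2 (1.09). The 3 other cuticle contigs listed, all cuticular protein 65Au, differed the other way: black olives differed from green olives by -1.63 to -1.70 and from artificial diet by -1.68 to -1.73, and none was called over artificial diet. Black olive array 2 was the lowest for all 3, as for contig11487 with -1.51, -3.46, -0.85 and -0.98, and without it the differences from green olives were -1.06 to -1.11 and were still called. Contig04794 belongs to the Osiris genes, an insect family. Its ratios were 0.24, 1.74, 2.31 and 0.50 in black olives and 1.37, -0.16, 0.08 and 0.11 in artificial diet, so that the groups overlapped. On artificial diet array 2, where it was not above background, its log2 level was 6.30, against 10.31 to 11.32 on the other 3. With a ratio of -0.16 there, the green olive level on that array was about as low. Its black olive levels were 10.65, 11.95, 10.21 and 10.91, so the highest ratio, on array 3, came with the lowest black olive level. Artificial diet array 1, at 11.32, exceeded every black olive level but that of array 2. Contig07136, similar to the spider peptide U8-agatoxin, had ratios of 0.70, 1.34, 1.68 and 0.75 in black olives and 0.15, 0.38, 0.36 and 0.25 in artificial diet, with no overlap.

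For the 23 named members, leaving out black olive array 2 kept all differences above 0, between 0.71 and 1.85 over green olives and between 0.56 and 1.71 over artificial diet. The rule kept 13 of the 23 whichever array was left out. After this array was left out, the thresholds were still passed over green olives by contig03770, contig10878, contig04692, contig00237, contig01990, contig03283, contig00981, contig07357, contig09851 and contig07136. The other named proteins were not called over green olives without it, among them contig08426 at 0.90, contig07827 at 0.93, contig10443 at 0.89 and contig04794 at 1.01. Over artificial diet, the named proteins that passed without it were contig03283 and contig07357.

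The 8 heat shock protein contigs formed a contrast to the set. All of them were called lower in black than in green olives, with differences of -1.48 to -3.31, and none was called between black olives and artificial diet, where they ranged from -0.75 to -1.56. Without black olive array 2 all were still called lower than in green olives, by -1.48 to -2.98. The range from artificial diet was then -0.21 to -1.29, with none called. Most of the contigs are described as heat shock protein 23, so they are not counted as separate genes. Heat shock proteins bind unfolded proteins, and none was a member. They were chosen from contigs the study had listed as changed.

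Of the members without a named protein, the 10 with the largest scanner ratio of black over green were of several kinds. Contig13744, measured by 1 probe, had ratios of 1.74, 2.31, 1.15 and 1.76 in black olives and 0.29, 0.44, 0.53 and 0.56 in artificial diet. Contig07741 had 0.98, 1.83, 1.04 and 0.95 in black olives and -0.18, 0.00, -0.16 and -0.15 in artificial diet. Contig06180, described by an isoform letter, had 1.88, 2.61, 0.46 and 0.93 in black olives and 0.24, -1.20, -0.28 and -0.33 in artificial diet. In these 3, every black olive array was higher than every artificial diet array. For contig13744 and contig07741 both differences were called, 1.74 and 1.29 for contig13744 and 1.20 and 1.32 for contig07741, over green olives and over artificial diet in that order. Contig07741 was dim, above background in 2 of the 4 artificial diet and 5 of the 8 green olive channels, and without black olive array 2 its difference over green olives was 0.99 and was not called.

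In others, single arrays reached far from the rest. Contig07480 had ratios of 2.35, 2.61, 2.26 and 1.55 in black olives and -0.77, 0.05, 5.23 and 0.37 in artificial diet. Contig08301 had 1.41, 2.31, 1.46 and 0.73 in black olives and -0.38, 0.00, 3.63 and 0.45 in artificial diet. On artificial diet array 3 both stood above all black olive arrays, and neither difference was called for either contig. Contig08301 was dim, above background in 1 of 4 artificial diet and 3 of 8 green olive channels. The reverse strand of contig10956 had 0.61, 1.36, 0.78 and 2.25 in black olives and 1.51, -0.05, 0.53 and 2.46 in artificial diet, a black minus artificial difference of 0.14 ± 0.57 (SE), so that it lay high in both regimes on the normalized scale. A segment of contig04190 had 0.44, 3.61, 1.73 and 0.59 in black olives and 2.23, -0.48, 1.34 and -2.09 in artificial diet, with no order between the groups. Contig08234 had 0.86, 1.09, 1.54 and 0.32 in black olives and 0.16, 0.30, 0.22 and 0.12 in artificial diet. It was dim: 3 of 4 black olive, 3 of 4 artificial diet and 3 of 8 green olive channels were above background. Neither of its differences was called. The reverse strand of contig06319 had 0.73, 2.21, 0.79 and 1.34 in black olives and 0.37, 0.24, 0.50 and 0.78 in artificial diet.

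Many members came from contigs probed on both strands. Per the study's methods, probes were placed on the forward and the reverse strand where no homology to arthropod proteins had been found, although 3 of the named members, contig00031, contig09851 and contig00694, also had both strands on the array. The other strand was on the array for 159 members, or 56.2%, beside 13328 of the 20516 names on the array and 5796 of the 12338 names that met the background limit of the rule. Forward probes of whole contigs gave 187 members, reverse probes 77, segments of contigs 15, and other database sequences 4. Members on the reverse strand made up 27.2% of the set, against 32.5% of all names and 23.1% of the names that met that limit.

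Both strands were members for 17 contigs. Their forward strands had a median black minus green difference of 0.88, with a range of 0.16 to 2.05, and their reverse strands one of 0.79, with a range of 0.39 to 1.60. Over artificial diet the medians were 0.83 on the forward and 0.73 on the reverse strand. Contig12857 had similar profiles on both strands: the forward strand had ratios of 0.87, 1.25, 0.49 and 1.26 in black olives and -0.37, -0.40, 0.14 and 0.51 in artificial diet, and the reverse strand 1.01, 1.23, 0.51 and 1.27 in black olives and -0.11, -0.12, 0.17 and 0.61 in artificial diet. Contig05145 had the highest forward value, with ratios of 0.09, 3.37, 2.34 and 2.41 in black olives and 2.79, -1.76, -2.72 and 1.06 in artificial diet. Its reverse strand had 0.07, 2.27, 2.13 and 1.93 in black olives and 1.06, -0.12, -1.41 and 0.45 in artificial diet. On both strands, black olive array 1 was close to green olives and the other 3 were high, and the artificial diet arrays spread on both sides of 0. The strands of a contig share sequence and larvae and are not independent of each other.

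For 125 members the other strand was measured and was no member. Those other strands had a median black minus green difference of 0.15, and 98 of them were above 0. Where the other strand was itself above background in all 4 black olive channels, in 49 cases, the median was 0.39, the range -0.41 to 1.22, and 40 were above 0. The median over all strands with a partner was 0.00. The strand on which a member was found is therefore not always the only one with a positive difference.

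**Figure D5:**
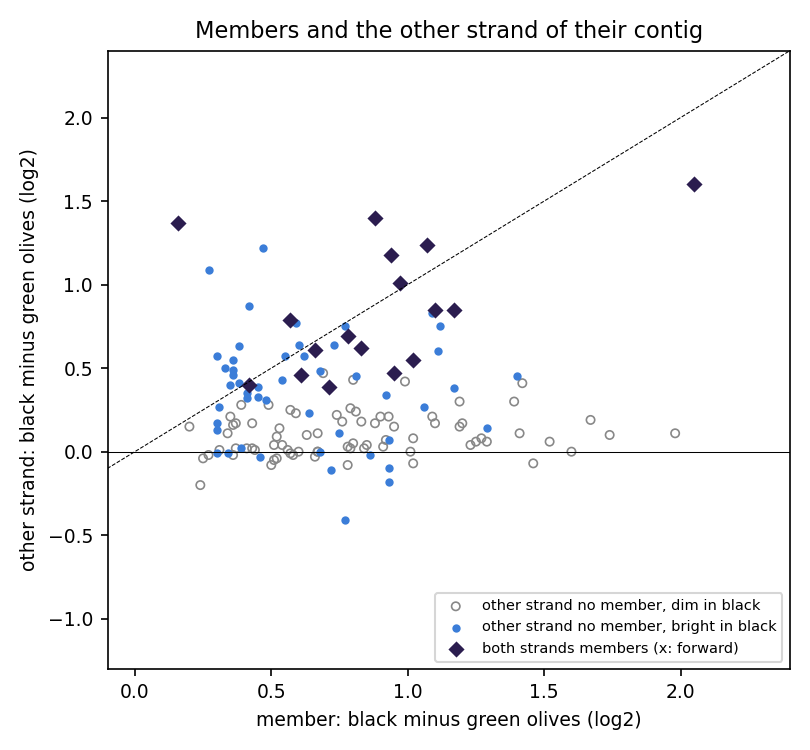
Normalized log2 difference of black minus green olives for a member (x axis) and for the other strand of its contig (y axis). Diamonds are the 17 contigs with both strands in the set, blue points the 49 other strands above background in all 4 black olive channels, open circles the dimmer ones, and the dashed line marks equal values.

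Probes within a contig mostly pointed the same way. Of the 815 probes of the members, 812 had a mean black over green ratio above 0. Of the 258 members with at least 2 probes, 255 had every probe above 0 in black over green and 253 in black over artificial diet, and in 164 every probe exceeded 0.5. The probes of 18 members lay 1 or more apart on the log2 scale. The probes of a contig read the same larvae, and all of them entered the rule.

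Close to the limits, the values of members and of other contigs ran together. In black over artificial diet, the members just inside, contig03835, contig00215 and the reverse strand of contig05010, had scanner differences of 0.802, 0.804 and 0.807, and contig06661, contig13650 and contig03938 just outside had 0.798, 0.797 and 0.796. In black over green olives, the reverse strand of contig05685, a segment of contig00320 and the reverse strand of contig11961 had 0.801, 0.803 and 0.806 just inside, and contig06075 and the reverse strands of contig12344 and contig14006 had 0.798, 0.793 and 0.790 just outside.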

How the data were processed

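For each array the authors deposited Feature Extraction output (10.7.3.1 in the file headers, 10.5 in the submitters' processing notes). Median spot and background intensities are deposited with no normalization, and the files also hold the scanner's log10 ratio of Cy5 over Cy3 after its own background and dye correction. The deposited value table gives the same log10 ratios to within 0.005. The rule used the scanner log10 ratios, put on the log2 scale.

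All other values were computed here in R 4.3.3 with limma 3.58.1 (files were read with data.table, version 1.17.8), with the settings of the study's methods: normexp background correction (offset 50), loess within arrays, Aquantile between arrays, and 1 linear model over the 8 arrays with empirical Bayes statistics and Benjamini-Hochberg adjustment over 20516 contigs. The 1319 control spots were left out and 46 to 128 outlier spots per array had no weight. Spots were averaged to probes and probes to contigs. A contig was called at an adjusted p-value under 0.05 with a log2 difference of over 1 in size. The SE of black olives minus artificial diet is that of the model. The fit was tested on simulated data.

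The members and gene lists were chosen with earlier results of these data known. Contigs were named if the study's tables give a protein name, if they were among the 10 others with the largest scanner ratio of black over green, if both strands were members, or if they lay nearest a limit. From those tables only descriptions were used; their fold changes and p-values were not. Whether pools came from separate collections is not given in the sources used here, so p-values measure only the spread between pools. Precision is limited by the 4 arrays per set. Alternatives covered background, normalization, outliers, dim contigs, probe summary, block, slide row, the limits of the rule and leaving out each array.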

Additional observations from a re-analysis of the deposited data

Results flagged for a closer look

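Among 132 groups of 4 arrays (66 named members, black olives and artificial diet), 8 held an array whose gap to the nearest other array was, as a share of the range, above Dixon's 95% critical value, and chance marks about 1 group in 20. On black olive array 2, RNA-binding protein 34 (contig01483) stood out high at a log2 ratio over green of 1.94 and contig07741 at 1.83. On black olive array 3, contig11950 was high at 1.59, and on black olive array 1 the reverse strand of contig05145 was low at 0.07. On artificial diet array 4, guanylate kinase (contig03283) was high at 0.33, the reverse strand of contig14087 at 0.83 and the reverse strand of contig11691 at 0.34. On artificial diet array 2, contig07741 was high at 0.00.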

How the results depend on the processing

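The size of the set depended most on the rule itself. Applied to the loess and Aquantile log2 ratios, the rule found 106 contigs, 104 of them members; a limit of 1 gave 151, a limit of 0.6 gave 621, and a black olive signal above background in all spots gave 179. The median over spots gave 284 and leaving out outlier spots 282. Leaving out 1 array gave 236 to 400 contigs. The scanner log ratio gave 143 members called over green olives in place of 53, 1 member called between green olives and artificial diet in place of 0, and medians of 1.19 over green olives and 1.11 over artificial diet in place of 0.79 and 0.78. The cause of these shifts was not tested. With the row of the slide in the model, 10 members were called over artificial diet in place of 19.

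With the replicate number as a block, 2 members were called over artificial diet and 47 over green olives. The labels do not say that a number marks a shared batch, and in only 1 of 4 cases did a black olive array deviate most like the artificial diet array of its own number, so the number was not taken to pair the arrays. The green olive channels matched under other numbers, as given among the other observations; a fit with that pairing was not run. With 1 array left out, 8 to 22 members were called over artificial diet: 10, 8 and 9 without artificial diet arrays 1, 2 and 3. Over green olives 33 to 63 were called, the 33 without black olive array 2, of which 28 were among the 53. No member was called between green olives and artificial diet with any array left out. The medians were 0.64 to 0.84 over artificial diet and 0.68 to 0.88 over green olives. The other settings kept these counts within 1.5 times and the medians within 1 SD. The named members stayed above 0 in both comparisons under all settings, except that the reverse strand of contig10956 was at -0.20, -0.25 and -0.05 over artificial diet without black olive array 4, artificial diet array 2 and artificial diet array 3.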

Other observations

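Taken array by array, the green olive channels of the 2 sets of arrays deviated from their set means in matching ways across all contigs. The deviations of black olive array 2 correlated with those of artificial diet array 1 at r = 0.87, those of black olive array 3 with artificial diet array 2 at 0.83, those of black olive array 4 with artificial diet array 4 at 0.77, and those of black olive array 1 with artificial diet array 3 at 0.62. All other pairs lay between -0.56 and -0.08. These correlations are across contigs, which are not independent, and the labels do not say whether the same green olive pools were used on both sets. Among the members, the log ratios of black olive array 2 and artificial diet array 1 deviated together at r = 0.83, as did those of black olive array 4 and artificial diet array 4.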
